A study of Mus musculus with 115 samples.

Results

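The neural splicing regulators and REST were followed here through 10 genes, chosen by name and taken from the 45699 genes of the expression table. They are Srrm4, Rest, Celf3, Celf4, Celf5, Elavl2, Elavl3, Elavl4, Nova1 and Nova2, and all 10 were found. RNA was sequenced from prostate tissue of (TRAMP x WSB/EiJ) F2 mice. That intercross started from the wild-derived strain WSB/EiJ and C57BL/6 TRAMP females. The paper took organ weight as tumor burden without pathological evidence of tumor, so a library need not hold tumor. All libraries carry the same label, F2 offspring of that cross. Each has its own number in its title, taken here as that of a separate mouse. By the paper's methods the mice were transgene positive males. No treatment and no transgene-negative mice are named, and no age is given for a single library. TRAMP mice express the SV40 T antigens from a prostate-specific promoter and develop epithelial and neuroendocrine prostate tumors, so every level below is from tissue in which the oncogene was present. The mice were kept to a fixed age or to humane endpoints, and where the prostate was small the RNA came from its ventral lobe. Each library is a bulk sample, in which fewer cells of a type and less RNA per cell cannot be told apart.

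REST is a zinc finger repressor that binds the RE1 element and, with the corepressors RCOR1 and SIN3A, keeps neuronal genes silent in other cells. SRRM4 is a splicing activator of neurons that promotes the inclusion of neural microexons, and it also directs splicing of Rest RNA toward a truncated product with little repressor activity, while REST in turn represses Srrm4. The CELF proteins, the neuronal ELAVL (Hu) proteins and the NOVA proteins bind RNA and set splicing, stability and translation in neurons. Loss of REST activity and gain of SRRM4 are known features of neuroendocrine prostate cancer. Chga, which encodes chromogranin A of dense-core granules, is the marker the members were set against. The table holds 1 value a gene, so the truncated Rest product was not measured.

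On GRCm38 the members lie on 8 chromosomes and none is on X. Srrm4 (ENSMUSG00000063919) is at chr5:116439275-116591817 on the minus strand and Rest (ENSMUSG00000029249) at chr5:77265491-77286432 on the plus strand, while Chga (ENSMUSG00000021194) is at chr12:102554969-102565028. All 10 are annotated as protein coding. Exon bases were shared with no other annotated gene for 4 members, Rest, Celf4, Elavl2 and Elavl4. Srrm4 shares bases with the antisense gene Srrm4os, Celf3 with Riiad1, Celf5 with Gm16105 and Nova2 with Gm26821, each on the opposite strand. Elavl3 shares bases with Gm49318 and Nova1 with Gm33869 on the same strand. The library kit is not described as stranded, so low values of these 6 could hold reads of the partner gene.

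Promoters were searched because REST acts through a sequence element, and 8 of the 10 members had at least 1 window in the RefSeq promoter table (GRCm38.p6). The windows reach from 250 bases before to 50 after a start site. The left and right arms of the RE1 element, CAGCACC and GGACAGC, were sought on both strands. Neither arm was in a window of the 8 members or of Chga, against 13.1% of the 32851 windows searched that held at least 1 of them. That says only that these letters are not in these windows. The E-box CAGCTG was added to the search after the RE1 result and is the same on both strands. It was in a window of 6 of the 8 members, Celf3, Celf5, Elavl2, Elavl3, Elavl4 and Nova1, beside 18.3% of the 27025 genes with a window, but Celf3, Celf5, Elavl2 and Elavl4 have 4 to 7 windows each and so had more chances. The upstream stretches of 250 bases, which end just before a start site, are shown for Srrm4, a member with neither motif in its window, for Elavl3, whose own levels separated the high-Chga libraries from all others, and for Chga. Capitals mark CAGCTG. In Elavl3 its first letter lies 43 bases before the start and in Chga 179 and 116 bases before it.
Srrm4, chr5:116591818-116592067, minus strand: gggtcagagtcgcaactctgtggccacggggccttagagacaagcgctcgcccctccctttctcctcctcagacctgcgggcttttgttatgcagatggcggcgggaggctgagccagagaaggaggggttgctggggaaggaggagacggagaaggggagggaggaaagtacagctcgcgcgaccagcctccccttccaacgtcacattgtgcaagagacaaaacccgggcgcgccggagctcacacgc
Elavl3, chr9:22052024-22052273, minus strand: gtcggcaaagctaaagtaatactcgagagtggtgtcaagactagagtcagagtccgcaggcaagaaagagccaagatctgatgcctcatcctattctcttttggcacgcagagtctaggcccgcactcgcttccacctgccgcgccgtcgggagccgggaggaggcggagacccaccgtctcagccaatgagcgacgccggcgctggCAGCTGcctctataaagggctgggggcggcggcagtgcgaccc
Chga, chr12:102554691-102554940, plus strand: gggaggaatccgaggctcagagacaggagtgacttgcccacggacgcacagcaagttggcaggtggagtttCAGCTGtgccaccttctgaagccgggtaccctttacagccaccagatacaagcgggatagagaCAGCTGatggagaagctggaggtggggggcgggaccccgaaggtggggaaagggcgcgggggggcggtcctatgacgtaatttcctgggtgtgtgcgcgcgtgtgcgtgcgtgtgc

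The libraries did not form a single cloud. On the first principal component of 14614 genes, from which the members and Chga were left out and which held 48.6% of the variance, 79 libraries lay apart from 36. Chga itself separated again among the 79 into 72 at 0.06 to 0.81 TPM and 7 at 1.19 to 4.84 TPM. Among the 36, 32 had 21.15 to 479.05 TPM of Chga and the other 4 had 0.15 to 2.55 TPM. That last division did not meet the rule used for the others, which asked for at least 6 libraries on each side, and it was made after seeing the data, where no library lay between 2.55 and 21.15 TPM. These sets come from the data and not from the labels, and they were not tested against each other. The 32 had a summed level of 311.23 to 1097.27 TPM over 10 proliferation genes, and the 72 had 5.25 to 206.72 TPM. Prostate luminal genes, among them Pbsn, summed to a median of 9730.17 TPM in the 72 and 60.555 TPM in the 32. Between 10358 and 15824 genes reached 1 TPM in a library. The 20 genes with the largest share took 48.9% to 81.8% of all TPM, so a level in TPM also moves with that share, and the depth of a library cannot be read from TPM.

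Over all libraries Rest was the only member that reached 1 TPM in at least 50% of libraries. That is 1 of 10 members, where 27.8% of all genes passed the same limit. The neural members were instead near 0 in most libraries and high in a minority. Of the 9 of them, none reached 1 TPM in 67 libraries, 1 to 4 did in 16 libraries, and 7 to 9 did in 32 libraries. No library had 5 or 6. The libraries with 7 or more were the 32 with high Chga.

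**Figure D1:**
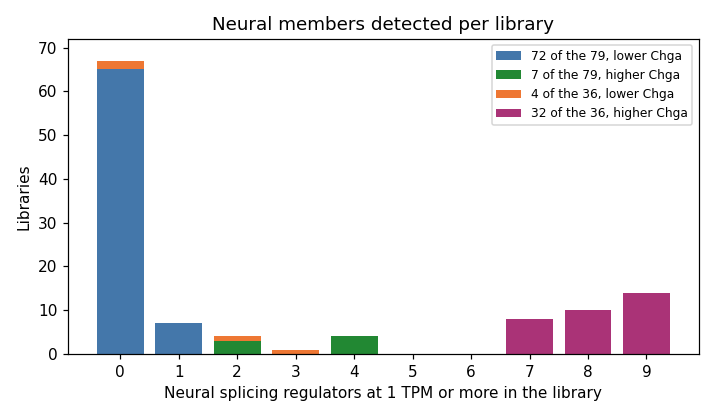
The number of libraries (y axis) with each count of neural splicing regulators at 1 TPM or more (x axis, 0 to 9), stacked by set. The 32 high-Chga libraries hold 7 to 9 of the 9 genes and no other library holds more than 4.

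The 3 neuronal Hu genes, whose proteins stabilise AU-rich neuronal transcripts, were high in the 32 and low elsewhere. Elavl3 was at 3.38 to 23.6 TPM, with a median of 14.77, in the 32 and at 0 to 0.46 TPM in the other 83 libraries. Elavl4 was at 7.09 to 101.13 TPM (median 53.165) in the 32 and at 0 to 2.09 TPM elsewhere. Sorted by their own levels alone, both genes separated exactly those 32 libraries from the rest. Elavl2 was at 6.53 to 34.84 TPM (median 16.37) in the 32 and reached 4.42 TPM elsewhere, in 1 of the 7. None of the 3 overlapped between the 32 and the other libraries. Of 29140 genes at 0.1 TPM or more in at least 6 libraries, 0.868% were higher in each of the 32 than in any other library and 0.00686% were lower.

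The CELF genes were also high as a group. Celf4 was at 7.56 to 46.12 TPM (median 32.64) in the 32 and at 0.09 to 6.87 TPM elsewhere, and Celf3 was at 7.04 to 29.03 TPM (median 15.64) against 0.08 to 4.36 TPM. Celf5 was lower throughout, at 0.6 to 9.56 TPM (median 5.305) in the 32 and at most 0.9 TPM elsewhere, and its ranges overlapped. The NOVA genes, regulators of synaptic splicing, differed in level. Nova1 was at 1.34 to 49.29 TPM (median 19.705) in the 32 and at most 1.2 TPM elsewhere. Nova2 did not pass 2.04 TPM anywhere and overlapped, at 0.26 to 2.04 TPM (median 0.92) in the 32 and at most 0.35 TPM elsewhere.

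Srrm4, the microexon activator, was low even where it was on. It was at 0.6 to 6.5 TPM with a median of 2.19 in the 32, and at 0.01 to 0.84 TPM elsewhere. The highest values were 6.5 TPM in W462, 6.24 in W1702 and 4.62 in W1514. It reached 1 TPM in 26 libraries, each with Chga at 1 TPM or more, and in no library without Chga. Its ranges overlapped through 1 of the 4 low-Chga libraries of the 36, W1790, at 0.84 TPM.

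In all, 6 of the 10 members, Celf3, Celf4, Elavl2, Elavl3, Elavl4 and Nova1, were higher in each of the 32 than in any other library, and none was lower in each of them. Over the 29140 genes that passed the filter, 0.868% were higher and 0.00686% were lower in this way.

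**Figure D2:**
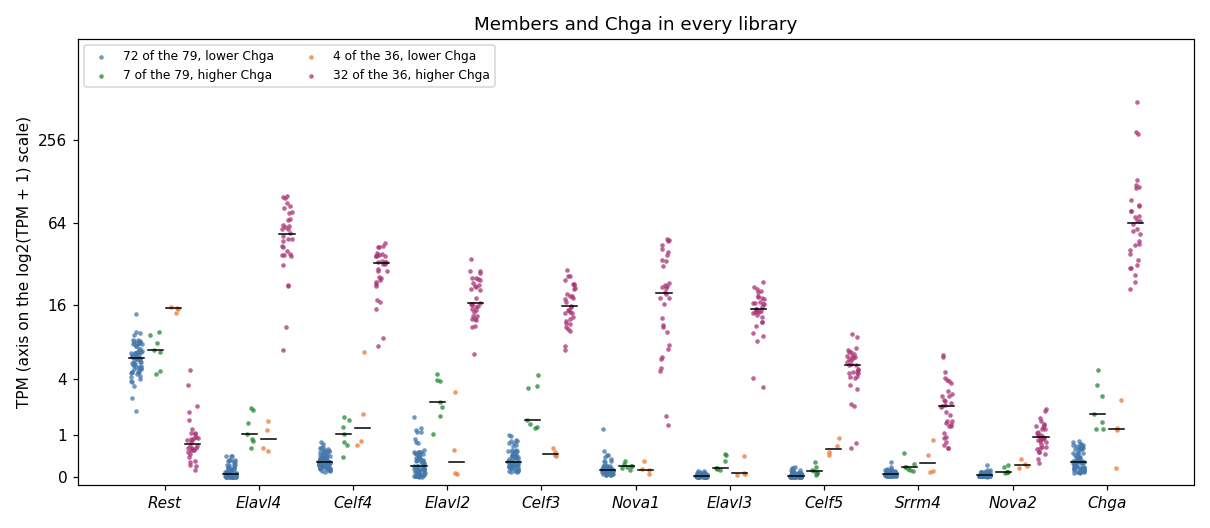
Levels of the 10 members and Chga in every library (y axis, TPM spaced on the log2(TPM + 1) scale), 1 point a library, with the median of each set as a line. The neural members have their highest values in the 32 high-Chga libraries, and Rest is lowest there and highest in the 4 low-Chga libraries of the 36.

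Rest ran the other way and was above 0 in every library, with a lowest level of 0.13 TPM and less than 1 TPM in 23 libraries, each of them among the 32. It was at 1.96 to 13.62 TPM with a median of 6.1 in the 72, and at 0.13 to 4.78 TPM with a median of 0.73 in the 32. The ranges overlapped, since 3 of the 32, W4419, W4437 and W4517, were at 4.78, 3.51 and 2.2 TPM. These 3 also had the highest prostate luminal sums of the 32, at 2193.42, 1290.27 and 2589.19 TPM. With TPM rescaled after the 20 most abundant genes were removed, Rest was at 10.1 to 33.9 in the 72 and 0.52 to 15.9 in the 32.

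In TPM, the highest Rest of the whole series was in the 4 libraries that lay among the 36 but had little Chga. W1050, W1915, W1790 and W1118 had 15.37, 15.09, 14.93 and 13.91 TPM of Rest. The next was W4548 of the 72 at 13.62 TPM, and after it no library passed 9.92 TPM. On the rescaled values the 4 were at 29.2 to 33.2 and no longer apart, since the 72 reached 33.9. The 4 had proliferation sums of 741.24 to 928.97 TPM, within the range of the 32, but luminal sums of only 2.24 to 6.58 TPM. Their stroma sums were 542.21 to 1967.6 TPM, where the 32 had 3.85 to 1013.81, and their immune sums were 102.7 to 469.21 TPM, where the 32 had 11.11 to 380.36. Vim, a filament gene of mesenchymal cells picked after its values were seen, was at 135.02 to 189 TPM in the 4. It was at 294.14 TPM in W4548 and 72.75 TPM in W4071, both of the 72. Zeb1, looked at beside Vim, was at 2.6 to 4.99 TPM in the 4, below the 24.13 TPM of W4548 and the 7.65 TPM of W4071. The part of these cell types in the Rest of the 4 was not tested. Of epithelial genes, also picked after their values were seen, Krt8, a keratin of simple epithelium, was at 368.98 to 630.5 TPM in the 4. Epcam was at 216.16 to 302.49 TPM in them. W4071 had 344.88 TPM of Krt8 and 358.78 TPM of Epcam, and W4548 had 94.96 and 81.47 TPM. Cdh1 was at 52.08 to 89.62 TPM in the 4, 98.46 TPM in W4071 and 58.44 TPM in W4548. These picked genes were not set against the 32 or the other libraries of the 72, so none is read as particular to the 4. The neural members were mostly low in the 4, with Srrm4 at 0.08 to 0.84 TPM, Elavl3 at 0.03 to 0.41 TPM and Nova1 at 0.05 to 0.31 TPM. W1915 was the exception, with 6.87 TPM of Celf4 and 3.07 TPM of Elavl2.

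By mean log2(TPM + 1) over all libraries the order was Rest, Elavl4, Celf4, Elavl2, Celf3, Nova1, Elavl3, Celf5, Srrm4 and Nova2. Of the 9 neighbour pairs 6 differed by a two-sided sign-flip permutation test paired by library (adjusted p from 4.5e-05 to 0.00610). The 3 that did not pass were Rest and Elavl4 (mean difference 0.58, SD 3.40, adjusted p = 0.0898), Elavl4 and Celf4 (0.03, SD 0.58, adjusted p = 0.589), and Elavl2 and Celf3 (0.02, SD 0.46, adjusted p = 0.708). The mean hides the split of the libraries, since Rest was above Elavl4 in 83 libraries and below it in 32. Of the called pairs, Celf5 was above Srrm4 in only 43 libraries and Elavl3 above Celf5 in 58. In the other called pairs the first gene was higher in 77 to 96 libraries. A called difference of means is thus not an order that holds in each library. The order also moved with the scale, and 7 of the 10 places stayed with a pseudocount of 0.1, 8 under median-of-ratios scaling and 6 on rescaled TPM. Rest stayed first in each, and Elavl4 fell behind Celf4, Celf3 and Elavl2 with the smaller pseudocount.

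The question of the comparison with Chga is whether the members move with it inside a set, and not only between sets. In the 79 libraries, 7 of the 9 members that passed the filter rose with Chga in limma (Benjamini-Hochberg over 24622 genes) and none fell. The background was 18% of genes rising and 0.118% falling, with a median slope over all genes of 0.10. The slopes, in log2(TPM + 1) per unit of log2(Chga TPM + 1), were led by Elavl2 at 0.96 ± 0.085 (SE, adjusted p = 3.39e-16), Celf3 at 0.87 ± 0.052 and Elavl4 at 0.69 ± 0.033. Rest (0.16 ± 0.094, adjusted p = 0.211) and Nova1 (0.04 ± 0.040, adjusted p = 0.530) did not pass, and Nova2 was below the filter. Within the 72, whose Chga stayed under 1 TPM, 2 of 8 members still rose, Celf3 (0.57 ± 0.098, limma adjusted p = 5.85e-05) and Elavl4 (0.40 ± 0.061, limma adjusted p = 3.43e-06), where 0.982% of genes did. Elavl3 and Nova2 were under the filter there.

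In the 36 libraries all 9 neural members rose with Chga and Rest fell, beside 7.53% of genes rising and 16.9% falling. The Rest slope was -0.46 ± 0.061 (limma adjusted p = 4.39e-07), the steepest rise was that of Elavl4 at 0.67 ± 0.099, and the shallowest was that of Nova2 at 0.09 ± 0.030. These calls rested on the 4 libraries with low Chga. Within the 32, none of the 10 members passed in either direction, where 3.93% of genes rose and 0.107% fell. Unadjusted, none of the 10 had a limma p under 0.05 there, and the smallest was 0.0570 for Celf3. The Rest slope was -0.06 ± 0.088 and that of Elavl4 was -0.03 ± 0.14. Among the 32, a library with more Chga was thus not shown to have more of any member. The slopes of 3 of the 9 members that could be compared, Rest, Celf3 and Elavl2, differed between the 79 and the 36 (limma, interaction term), where those of 18.6% of genes did, and between the 72 and the 32 none of 8 members passed, beside 0.191% of genes. W1065, with the highest Chga of all at 479.05 TPM, had 2.33 TPM of Celf5, below the median of the 32, and 34.84 TPM of Elavl2, the highest of all.

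**Figure D3:**
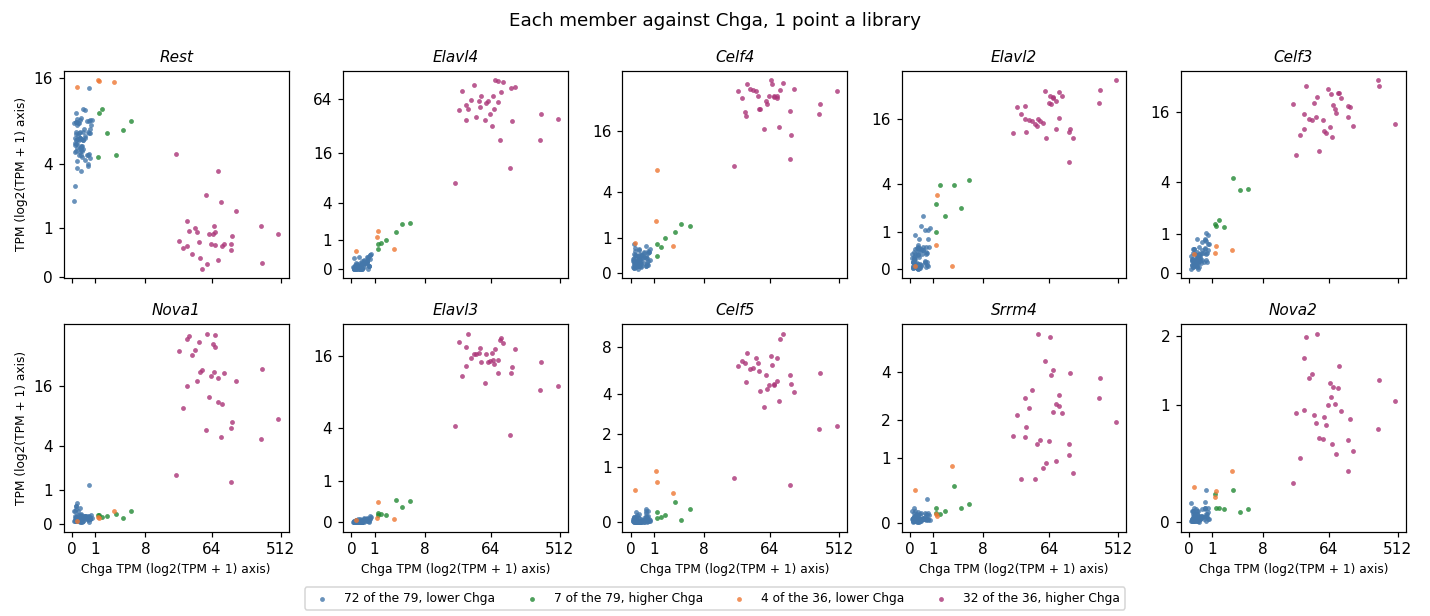
Each member (y axis) against Chga (x axis), both in TPM on log2(TPM + 1) axes, 1 point a library, coloured by set. No member has a called slope among the 32 high-Chga libraries, the fall of Rest in the 36 runs through their 4 low-Chga libraries, and Elavl4, Celf3 and Elavl2 climb with Chga among the 79.

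Pearson's r with Chga was then computed inside the sets, with 100000 permutations and adjustment over 20 relations. In the 72, 4 of 10 members passed: Elavl3 (r = 0.62, rho = 0.50), Elavl4 (r = 0.62, rho = 0.51), Celf3 (r = 0.57, rho = 0.50) and Elavl2 (r = 0.37, rho = 0.32). The adjusted permutation p were 6.67e-05 for the first 3, which rest on the smallest p the permutations can give, and 0.00645 for Elavl2. With the 2 most extreme Chga libraries left out the 4 values were 0.56, 0.56, 0.51 and 0.31. Elavl3 was under the limma filter in the 72, at 0 to 0.11 TPM with a median of 0.02 and 15 libraries at 0. Its r there rests on values near 0, whose precision is unknown. In the 32, none passed, and r lay between -0.31 for Nova1 and 0.33 for Celf3. In the 7, by exact permutation over 10 members, Elavl4 (r = 0.98, adjusted p = 0.00198, n = 7) and Celf4 (r = 0.91, adjusted p = 0.0228, n = 7) passed.

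The low levels of most neural members in the 79 moved with genes of autonomic neurons. The 7 libraries with raised Chga, W4492, W4360, W5003, W4292, W4219, W5001 and W4443, had 1.03, 2.02, 0.61, 0.81, 2.09, 1.43 and 0.87 TPM of Elavl4. In the same order Th, the tyrosine hydroxylase of noradrenergic neurons, was at 6.78, 7.53, 1.85, 3.68, 4.47, 6.02 and 1.49 TPM. Dbh, dopamine beta-hydroxylase, was at 1.22 to 4.7 TPM in them. The whole list of 8 peripheral neuron genes summed to 15.76 to 69 TPM in the 7 and to 0.19 to 13.57 TPM in the 72, without overlap. Neuroendocrine genes were not uniform in the 7. Insm1, a transcription factor of neuroendocrine cells, was at or near 0, at most 0.05 TPM, where the 32 had 12.69 to 53.66 TPM. The granule genes Scg2, Chgb and Scg3 were at medians of 6.43, 1.58 and 1.54 TPM in the 7 and 0.09, 0.04 and 0.075 TPM in the 72, and Eno2, a neuronal enolase, was at 6.58 and 1.325 TPM. The whole neuroendocrine list summed to 17.91 to 48.57 TPM in the 7 and 1.3 to 26.11 TPM in the 72.

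Within the 72, Elavl4 (r = 0.79, rho = 0.72), Elavl3 (r = 0.76, rho = 0.66), Celf3 (r = 0.76, rho = 0.73) and Elavl2 (r = 0.65, rho = 0.70) followed the mean z-score of the peripheral neuron list (adjusted permutation p = 8.24e-05 for each, over 140 relations). Leaving out the 2 farthest libraries gave 0.75, 0.73, 0.73 and 0.64. Elavl3 did not pass 0.11 TPM in the 72. Celf4 was also called (r = 0.40, rho = 0.49). Srrm4, Celf5, Nova1, Nova2 and Rest, with r from 0.05 to 0.26, were called by rank only (rho from 0.30 to 0.44). All 8 genes of the list rose with Chga in the 79 (median slope 0.99, beside 0.10 for all genes) and 7 of 8 did in the 72 by limma. Of the other marker lists, 5 of 5 neuroendocrine, 7 of 10 stroma, 5 of 6 Schwann cell and 1 of 6 luminal genes rose in the 79, and no immune or proliferation gene was called, beside 18% of all genes rising. In the 36, 6 of 7 neuroendocrine genes, 1 of 5 luminal and 1 of 8 peripheral neuron genes rose, while 3 of 9 immune, 2 of 6 Schwann cell, 1 of 10 stroma and 1 of 10 proliferation genes fell, beside 7.53% of all genes rising and 16.9% falling. The neuroendocrine list, which shares no gene with it, correlated about as highly with Elavl4 (r = 0.79) and Elavl3 (r = 0.73). Peripheral neuron genes moved with these results, and their part in them was not tested. In the 32 Elavl3 was called with the peripheral neuron list (r = 0.44, rho = 0.56, 0.35 without the 2 farthest libraries, adjusted permutation p = 0.0363). Elavl4 was called there by rank only (rho = 0.42, adjusted permutation p = 0.0426, and r = 0.33, adjusted permutation p = 0.131). Prph, one of the genes of the list, was at a median of 23.64 TPM in the 32.

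**Figure D4:**
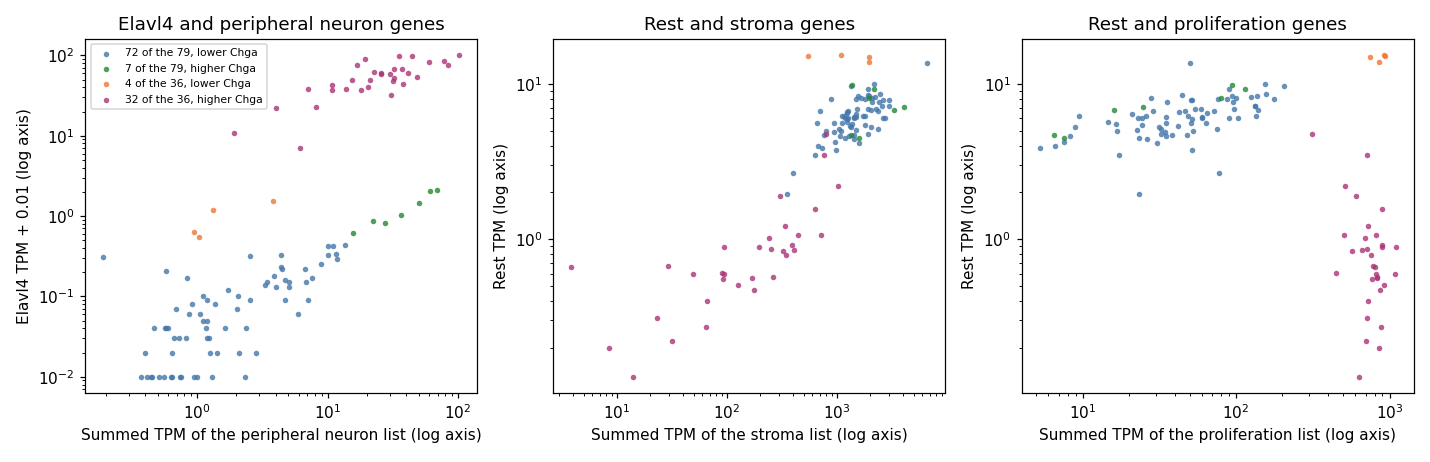
Elavl4 against the summed peripheral neuron genes (left), Rest against the summed stroma genes (middle) and Rest against the summed proliferation genes (right), in TPM on log axes, with 0.01 added to Elavl4 so that libraries at 0 are shown. The 79 form a rising line at low Elavl4 that the 32 do not join, Rest climbs with stroma inside the 32, and the 4 libraries highest in Rest sit at the proliferation level of the 32.

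Rest inside the 32 moved most closely with the genes of stroma and immune cells, while its relation to Chga was not called. Its r was 0.80 (rho = 0.79) with the stroma list of collagens and smooth muscle genes and 0.75 (rho = 0.80) with the immune list, with adjusted permutation p of 8.24e-05 and 0.000127. Both held without the 2 farthest libraries (0.81 and 0.75) and on the rescaled values (0.79 and 0.77). Stroma genes summed to 3.85 to 1013.81 TPM across the 32. The r with the luminal list, 0.69, rested on a few libraries, since rho was 0.21 and r fell to 0.47 without 2 of them. The same held for the Schwann cell list (r = 0.49, adjusted permutation p = 0.0200, rho = 0.13, 0.10 without 2). Rest was negative with the neuroendocrine list (r = -0.50, adjusted permutation p = 0.0124), where rho was -0.33 and not called and r was -0.28 without the 2 farthest libraries. On the rescaled values that relation was called both ways (r = -0.57 and rho = -0.43, adjusted permutation p = 0.00205 and 0.0409, and r = -0.49 without 2). With proliferation genes r was -0.46 (adjusted permutation p = 0.0294), but rho was -0.22 and not called, and r without 2 was also -0.22. In the 72, Rest also correlated with stroma (r = 0.71), immune (r = 0.69) and proliferation genes (r = 0.55), with an adjusted permutation p of 8.24e-05 for each. There the rescaled values gave only 0.43, 0.38 and 0.22, the last not called (adjusted permutation p = 0.0970). By rank the rescaled Rest was called with immune (rho = 0.34) and proliferation genes (rho = 0.34) and not with stroma (rho = 0.18, adjusted permutation p = 0.242), and without the 2 farthest libraries the r with stroma was 0.20 and with immune genes 0.25. The genes with the lowest r to Rest in the 79 were Rn7s1 and Rn7s2, 7SL RNA genes listed at identical values in every library, at r = -0.75. They were at 105977 to 329809 TPM each, a large share of the scale. The part of other cell types in the Rest level was not tested.

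Rest was also set against 18 neuronal genes commonly listed as its targets, inside each set. In the 72 the r with Rest was positive for all 18, from 0.15 to 0.67, highest for Unc13a, a synaptic vesicle priming factor (rho = 0.63). That sign was the general one there. In limma over all genes 11 of the 16 targets tested rose with Rest and none fell, where 79.3% of all 24036 genes rose and 0.578% fell. On rescaled TPM 6 of 17 rose and none fell, where 46.9% of genes rose and 1.4% fell. These shares of targets were below those of all genes, so nothing particular to the targets is read from the positive sign. In the 32 the r was negative for all 18, from -0.47 to -0.01, and 2 passed by permutation (Benjamini-Hochberg over 36 relations), Celsr3 (r = -0.47, adjusted permutation p = 0.0386) and Chgb (r = -0.44, adjusted permutation p = 0.0432). Neither held as Spearman's rho (-0.32 and -0.35), and without the 2 libraries farthest in Rest the r were -0.24 and -0.28. By limma 1 of 18 targets, Celsr3, fell with Rest in the 32 and none rose, where 2.14% of genes fell and 13.8% rose. On rescaled TPM 1 of 18, Chgb, fell and none rose, where 0.933% of genes fell and 11.6% rose.

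**Figure D5:**
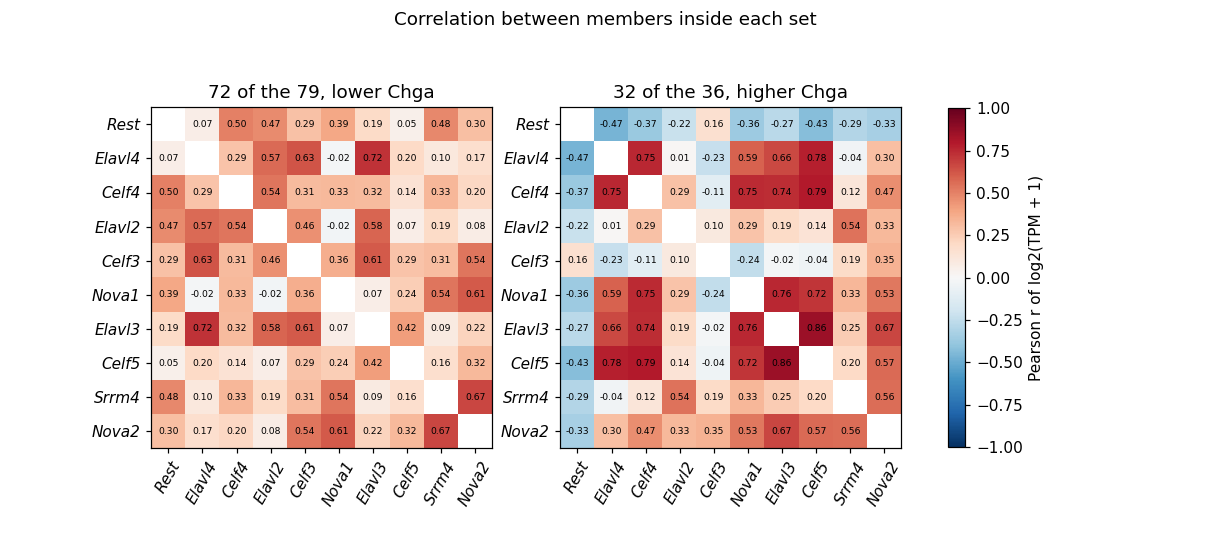
Pearson's r of log2(TPM + 1) between each pair of members in the 72 lower-Chga libraries of the 79 (left) and in the 32 high-Chga libraries (right), on a colour scale from -1 to 1. In the 32, Celf4, Celf5, Elavl3, Elavl4 and Nova1 form a block of high r, and Celf3 lies outside it. The r of Rest is negative with most members there, but was called only with Elavl4 and Celf5, and with neither by rank.

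The members did vary together inside the 32, but in blocks. Of the 36 pairs without Rest, 16 were called positive and none negative (adjusted over the 90 pairs of both sets, permutation). Celf5 and Elavl3 were the closest pair (r = 0.86, rho = 0.57, r = 0.63 without the 2 farthest libraries, adjusted permutation p = 6e-05), followed by Celf4 and Celf5 (r = 0.79, 0.52 without 2) and Celf5 and Elavl4 (r = 0.78, 0.49 without 2). Nova1 joined them, with r = 0.76 to Elavl3 and 0.75 to Celf4, or 0.57 and 0.56 without 2. Other pairs of the block rested on those libraries, since Elavl3 and Elavl4 fell from r = 0.66 to 0.18 (rho = 0.26, not called) and Elavl4 and Nova1 from 0.59 to 0.26 (rho = 0.29, not called). Srrm4 stood apart from that block and was called only with Nova2 (r = 0.56, rho = 0.56) and Elavl2 (r = 0.54, rho = 0.60). Celf3 had r between -0.24 and 0.35 with the 8 other neural members. Rest was called negative with Elavl4 (r = -0.47) and Celf5 (r = -0.43), which fell to -0.28 and -0.21 without the 2 farthest libraries. In the 72, 27 of the 45 pairs were called and each was positive, 6 of them with Rest. There 79.3% of all genes rose with Rest by limma, so the pairs with Rest are not read as particular to the members. The highest r was between Elavl3, at most 0.11 TPM there, and Elavl4 (r = 0.72). The share of pairs called among all genes was not computed for the 72 or the 32.

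Among the 32, 2 libraries were the lowest in this block. W4419 had 7.09 TPM of Elavl4, 0.74 of Celf5, 4.09 of Elavl3 and 1.71 of Nova1, together with the highest Rest and the lowest proliferation sum of the 32, 311.23 TPM. W370 was as low, with 10.78 TPM of Elavl4, 0.6 of Celf5, 3.38 of Elavl3 and 1.34 of Nova1, but its Rest was only 0.61 TPM and its luminal sum 91.88 TPM, while its Chga was 115.2 TPM. Both kept 12.15 and 12.39 TPM of Elavl2 and 18.79 and 18.09 TPM of Celf3. Inside the 32 the same block followed the proliferation list, with r of 0.83 for Celf5 (rho = 0.62), 0.78 for Elavl4 (rho = 0.62) and 0.76 for Celf4 (rho = 0.55), with adjusted permutation p of 8.24e-05, 8.24e-05 and 0.000127. Without the 2 farthest libraries these were 0.68, 0.55 and 0.52. Elavl3 (r = 0.71) and Nova1 (r = 0.58) were also called, but not by rank (rho = 0.40 and 0.30, adjusted permutation p = 0.0595 and 0.172), and without 2 libraries they were at 0.41 and 0.30. The r of Elavl2 with proliferation was 0.13.

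Other splicing regulators were taken from a list of 21. In the 36, 7 rose with Chga and 4 fell by limma, beside 7.53% of all genes rising and 16.9% falling, so that the share falling was near that of all genes. Srrm3, the paralog of Srrm4 that acts on the same microexons, rose most (0.48 ± 0.063), followed by Celf6 (0.39 ± 0.070), Khdrbs2 (0.38 ± 0.11) and Rbfox1 (0.36 ± 0.088). The 4 that fell were Esrp2 (-0.51 ± 0.11) and Esrp1 (-0.48 ± 0.15), regulators of epithelial splicing, and Ptbp3 (-0.23 ± 0.064) and Ptbp1 (-0.12 ± 0.040), of the polypyrimidine tract binding family that represses neuronal exons in other cells. The median slope of the list was 0.0092, beside -0.00072 for all genes tested. Within the 32 the only call was Ptbp3, which rose (0.31 ± 0.069, limma adjusted p = 0.0116). In the 79, 7 of 20 rose and none fell (median slope 0.23), beside 18% of genes rising, led by Celf6 (0.81 ± 0.037), Qk (0.62 ± 0.16), Rbfox1 (0.48 ± 0.061) and Rbfox3 (0.43 ± 0.14), and in the 72 Celf6 alone did.

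Of the 14 partners and regulators of REST, few moved. In the 36 Hdac1, a deacetylase of the corepressor complexes, and Ctdsp1, a phosphatase recruited by REST, fell with Chga by limma (-0.14 ± 0.034 and -0.14 ± 0.049), and 12 were not called (median slope -0.02), where 16.9% of all genes fell. In the 79 Btrc, part of the ubiquitin ligase that degrades REST, rose (0.23 ± 0.069), where 18% of genes did, and in the 72 none was called. In the 32 the related Fbxw11 (0.17 ± 0.046) and the corepressor Sin3b (0.18 ± 0.052) rose, where 3.93% of genes did. Of the listed targets, 12 of 18 rose and 1 fell in the 36 (median slope 0.28), beside 7.53% and 16.9% of all genes, with Snap25 (0.85 ± 0.082), Chgb (0.69 ± 0.10), Celsr3 (0.62 ± 0.076) and Gria2 (0.59 ± 0.11) ahead and Chat, which makes acetylcholine, falling (-0.06 ± 0.024). In the 79, 13 of 17 rose (median slope 0.50, beside 18% of genes rising), with Tubb3 at 2.75 ± 0.18, Snap25 at 2.32 ± 0.14, Stmn2 at 2.04 ± 0.14 and Syt4 at 1.21 ± 0.060. In the 32 only Unc13a rose (0.26 ± 0.062), beside 3.93% of genes, and in the 72, 8 of 16 did, beside 0.982%.

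The genes most like each member were sought by r of log2(TPM + 1) in the set of 79 or 36 where its median was higher, among genes whose mean over all libraries was 1 TPM or more. These values are a description of libraries that share a split, and carry no test. Over the 36, Elavl3 was closest to Lonrf2 (0.97) and Crmp1 (0.97), Elavl4 to Kif5a (0.97) and Tagln3 (0.97), Celf4 to Apbb1 (0.96), Celf5 to Tub (0.96), Celf3 to Scg5 (0.93), Elavl2 to Maneal (0.93) and Nova1 to Cep170 (0.92). Srrm4 and Nova2 had looser neighbours, Cacna1d (0.81) and Gm11611 (0.86). Over the 79, Rest was closest to Strn (0.96), Syncrip (0.96) and Tug1 (0.95).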

How the data were processed

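RNA was sequenced from 115 (TRAMP x WSB/EiJ) F2 prostate samples after depletion of ribosomal RNA. Per the labels and the methods, the authors used CASAVA 1.8.2, trimmed reads with Trimmomatic, built an allele-specific transcriptome with Seqnature (GRCm38), mapped with Bowtie2 2.2.5 and quantified with RSEM 1.2.20. The deposited values are TPM, which keep no depth, so no interval from counting and no count model was used. The paper's text gives fewer libraries than the table and does not name them, so all 115 were kept as 1 group. The libraries carry different numbers, and that each is a separate mouse was assumed and not stated by the labels. W7822 and W78022 have nearly alike names, and leaving both out changed no call of a member slope on Chga.

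The members and the gene lists were chosen with earlier results of these data known. Names came from GENCODE M21, which held 98.8% of the genes. Values were analysed as log2(TPM + 1), so fold changes of low genes are understated. A level was taken to split the libraries where 2 normal distributions had a BIC lower by over 10 than 1 had, with an Ashman D over 2 and no fewer than 6 libraries on each side. Slopes on Chga were fitted with limma 3.58.1 (R 4.3.3, trend) across all genes at 0.1 TPM or more in at least 6 libraries. Correlations used 100000 permutations, two-sided, with Benjamini-Hochberg adjustment and a threshold of 0.05. An index is the mean z-score of a list. The fits were tested on simulated data. Genes named beyond the members are the 4 most positive and 4 most negative called genes of each list, the marker lists, and the 3 genes most like a member (for Rest also the 3 least like it). Other genes were named after their values were seen, where the text says so. The split of the 79 and 36 by Chga, the E-box, the Rest targets by r and by limma slopes on Rest, and the rescaled Rest correlations were chosen after seeing the data. Alternatives were another pseudocount, 2 other scalings, other filters, other sets, Spearman's rho, a covariate and libraries left out. Some genes of the lists are not reported here by name.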

Additional observations from a re-analysis of the deposited data

Results flagged for a closer look

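Slopes on Chga differed between the 79 and the 36 libraries for 3 of the 9 members that could be compared (limma, interaction term, adjusted over 23199 genes), where 18.6% of genes did. For Rest the slope in the 36 minus that in the 79 was -0.62 ± 0.13 (SE, limma adjusted p = 0.000204). For Elavl2 it was -0.41 ± 0.13 (limma adjusted p = 0.0170) and for Celf3 -0.32 ± 0.11 (limma adjusted p = 0.0217). Both of these rose with Chga in each set, more steeply in the 79, and both differences were not called with a pseudocount of 0.1 (-0.17 for Elavl2 and -0.11 for Celf3) or with rescaled TPM (-0.20 and -0.20). That of Elavl2 was also not called under median-of-ratios scaling (-0.31), and neither was with sets taken from Chga itself (-0.54 and -0.20). Between the 72 and the 32 libraries no member passed (limma), none of the 8 compared but Celf3 had an unadjusted p under 0.05 (0.0178), and 0.191% of genes passed.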

How the results depend on the processing

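The split into 79 and 36 libraries was the same under each of the 3 alternatives tried. The largest dependence was on the 4 low-Chga libraries of the 36. With the 32 alone, chosen after seeing the data, members rising with Chga went from 9 to 0 and falling from 1 to 0, and the slopes of Celf5 (-0.13), Elavl3 (-0.10), Elavl4 (-0.029), Nova1 (-0.35) and Nova2 (-0.018) changed sign. In the 36, 5 rose with the first principal component as a covariate, 5 without the 2 libraries farthest in Chga, and 2 rose and 0 fell by Spearman's rho. In the 79, members rising went from 7 to 2 in the 72. Rest changed sign under median-of-ratios scaling (-0.047) and Nova1 with the component as a covariate (-0.00065), neither called. Slope differences called went from 3 to 1 with sets taken from Chga itself and to 0 between the 72 and the 32. Sign changes there were Elavl4 under median-of-ratios scaling (0.011) and with sets from Chga (0.034), and Celf4 (-0.16), Celf5 (-0.19) and Nova1 (-0.35) between the 72 and the 32. Celf3 and Elavl2 lost their difference with a pseudocount of 0.1 and with rescaled TPM, where Elavl3 and Nova1 gained one. Pairs of members called went from 82 of 90 to 45 inside the 72 and 32. Members detected in at least 50% of libraries went from 1 to 6 at 0.1 TPM, where 43% of genes were, and to 4 with rescaled TPM. The cause of these changes was not tested, beyond the smaller number of libraries. No paired analysis was possible because all samples share the same label and none are matched. TPM keeps no depth, so values near 0 have an unknown precision. A level of a few hundredths of a TPM, as for Nova2, Srrm4, Elavl3 and Celf5 in most of the 72, cannot be told from 0.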
